A study of Mus musculus with 8 samples.

Results

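The 10 genes described here belong to LIF and IL6 family cytokine signalling: the ligands Lif, Il6 and Il11, the receptor chains Lifr, Il6st, Osmr, Il6ra and Il11ra1, the transcription factor Stat3 and its feedback inhibitor Socs3. They were chosen by name, with earlier results of these data known, and are 10 of 23420 gene symbols in the count tables. RNA was measured in mouse uterine stromal cells at day 3 in 4 Erbb3f/f libraries and 4 libraries with the label Erbb3d/d. By the usual notation, f marks a floxed allele and d one that Cre recombinase has cut. The labels name no Cre line, no strain, age or treatment, no reference point for day 3, and do not say whether replicates came from separate animals or from pools. The p-values therefore measure the spread between these libraries, which may be partly technical. Values below run in the order of replicates 1 to 4. Both groups carry a modified Erbb3 allele, and no library from mice with unmodified Erbb3 was analysed here.

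Cytokines of this family signal through receptor complexes that share gp130, the product of Il6st. LIF binds the LIF receptor, which pairs with gp130, while IL6 and IL11 first bind their own alpha chains, encoded by Il6ra and Il11ra1. JAK kinases on the receptors then phosphorylate STAT3, which enters the nucleus and induces, among others, Socs3, whose product blocks gp130. In the mouse uterus LIF is required for implantation and comes mainly from the glands after the oestrogen surge before implantation, the luminal epithelium carries the LIF receptor, and IL11 signalling is required in the decidualizing stroma.

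Reads assigned to genes numbered 8578575 to 12854367 per library. The targeted gene did not follow the labels: Erbb3 had 7.40, 10.6, 8.25 and 12.3 CPM (reads scaled to a common library size and composition) in Erbb3f/f replicates 1 to 4 and 7.37, 14.3, 17.7 and 16.2 CPM under Erbb3d/d. Whole-gene counts cannot show whether an exon is missing, so the groups are called by their labels throughout. The 8 stromal markers were abundant in all libraries, with summed levels of 9699 to 12111 CPM for Erbb3f/f, against 7658 to 10920 CPM in Erbb3d/d, but markers of other cell types were also present. The 10 epithelial markers summed to 835 to 1275 CPM for Erbb3f/f, against 1242 to 1964 CPM in Erbb3d/d, and the 7 smooth muscle markers to 743 to 1563 and 1522 to 3661 CPM. All 10 epithelial and all 7 smooth muscle markers exceeded 1 CPM, so none of these defining markers was near 0. Erbb3d/d replicate 2 stood apart from its group: over well covered genes its counts differed less from the 4 Erbb3f/f libraries (chi-square per degree of freedom 11.03 to 14.9) than from the other Erbb3d/d libraries (19.9 to 36.8).

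The promoter stretches of 3 members with a motif match are shown. The motif is that of STAT factors (Socs3) or of AP-1, a factor built from immediate early gene products (Lif and Il6). Il11 also held an AP-1 match, and its stretch is not shown. Each is sequence upstream of a RefSeq start site on GRCm38.p6, ended before the next GENCODE exon of the gene. For Lif and Il6 that is where the annotated gene begins. The Socs3 stretch, with its match, lies inside the annotated gene, which spans 117966079 to 117970047 on the minus strand. Capitals mark a match to TTCNNNGAA, the letters of a STAT site, or to TGANTCA, the letters of an AP-1 site.
Socs3, chr11:117969452-117969616, minus strand: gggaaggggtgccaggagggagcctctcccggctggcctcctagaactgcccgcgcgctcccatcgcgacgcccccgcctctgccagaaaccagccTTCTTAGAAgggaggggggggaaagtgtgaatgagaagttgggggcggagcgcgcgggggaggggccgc
Lif, chr11:4257318-4257556, plus strand: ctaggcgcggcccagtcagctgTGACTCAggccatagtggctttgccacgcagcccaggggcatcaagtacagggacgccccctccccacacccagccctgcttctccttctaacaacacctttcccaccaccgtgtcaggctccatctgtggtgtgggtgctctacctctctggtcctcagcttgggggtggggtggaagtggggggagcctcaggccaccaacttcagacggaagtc
Il6, chr5:30012864-30013113, plus strand: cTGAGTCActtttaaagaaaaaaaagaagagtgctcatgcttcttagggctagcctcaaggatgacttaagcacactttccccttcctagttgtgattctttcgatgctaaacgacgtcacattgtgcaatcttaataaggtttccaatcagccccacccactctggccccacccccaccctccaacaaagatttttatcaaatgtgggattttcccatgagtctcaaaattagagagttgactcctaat

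Both motifs were searched on both strands over the 250 bases before each start. No match of one overlapped a match of the other. RefSeq entries were matched for all 10 members, with 13 start sites in all. The STAT letters occurred before 1 of these 13 starts, that of Socs3, 154 to 146 bases before it, and before 7.02% of 32851 mouse starts. The AP-1 letters occurred before 3 of the 13, those of Lif, Il6 and Il11, and before 6.75% of all starts. Neither string was found before the starts of Lifr, Il6st, Osmr, Il6ra, Il11ra1 or Stat3. A match is a string of letters and does not show binding.

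The comparison of the labels asked whether the ligands, receptors and intracellular parts of the pathway differ where Erbb3 was targeted. By p-value Lifr showed the clearest difference, at about 1.92 times the Erbb3f/f mean in the libraries labelled Erbb3d/d, and Socs3 followed at 1.54 times. Il6 and Lif had larger ratios of means than Socs3, at 2.21 and 1.61, but larger p-values. Il6st, the shared chain, had nearly the same level under both labels (ratio of means 1.03). Of the 10 members 9 passed the low-count filter and Il11 did not. In edgeR's quasi-likelihood test with Benjamini-Hochberg adjustment over 14598 genes, 0 members and 0 genes in all (0%) had an adjusted p under 0.05, and the smallest adjusted p of any gene was 0.109. At an unadjusted p under 0.05 there were 2 members, both higher in Erbb3d/d, against 6.64% of all genes higher and 4.97% lower. DESeq2 called 1 member, Lifr, and 261 genes in all (1.79%, with 1.4% higher and the rest lower in Erbb3d/d). With a replicate block 0.267% of genes were called higher, Lifr among them. The log2 fold change was above 0 for 8 of the 9 tested members and for 48% of all genes, with medians of 0.63 and -0.01.

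**Figure D1:**
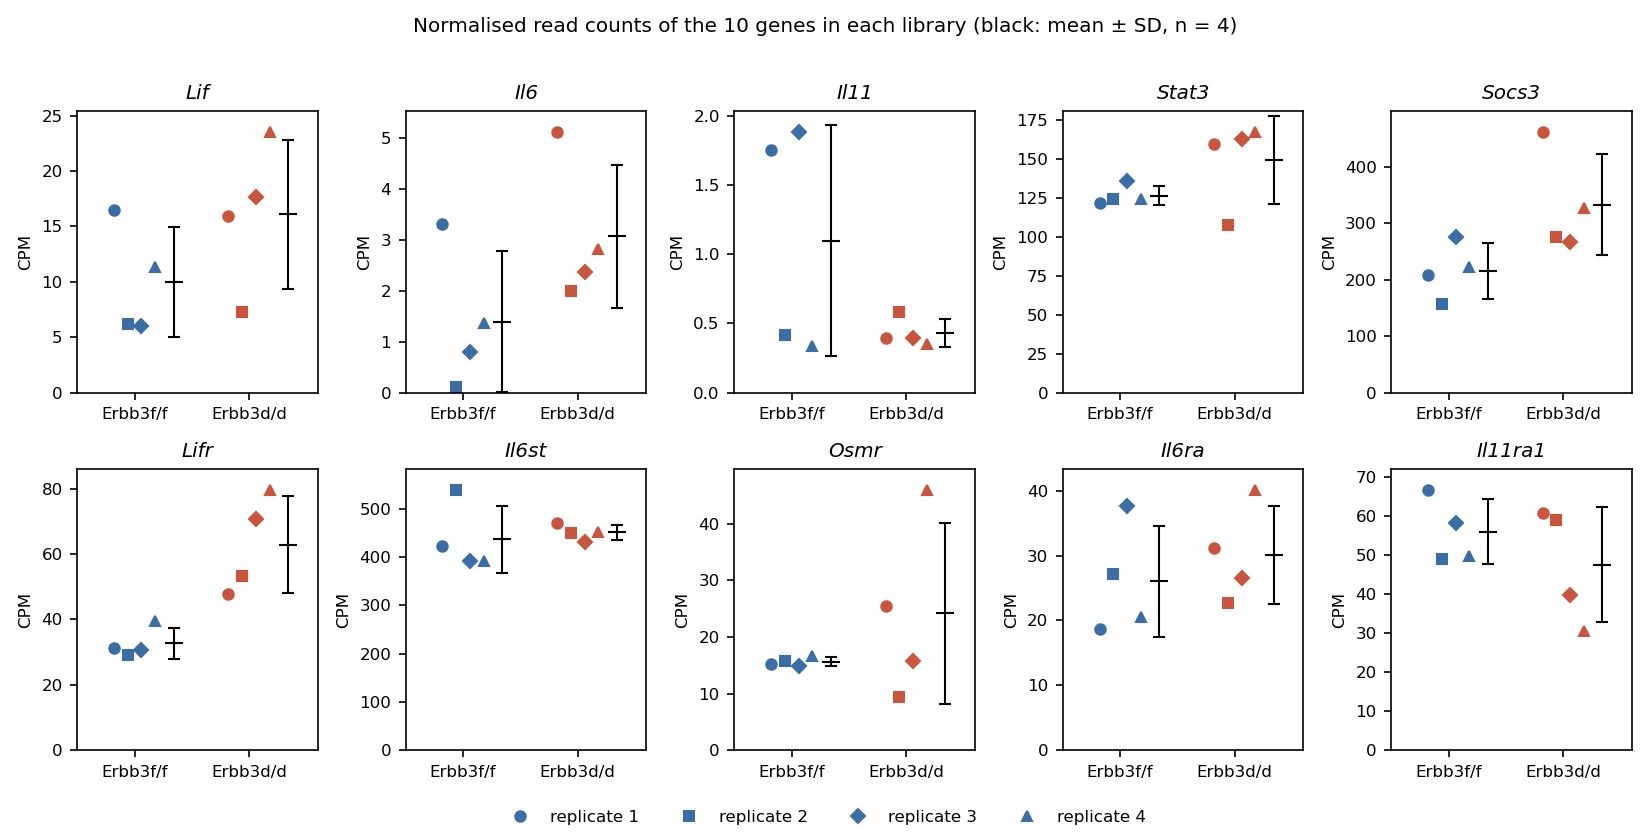
CPM of each gene (vertical axes from 0, each with its own scale) in the 4 libraries labelled Erbb3f/f (blue) and the 4 labelled Erbb3d/d (red), with shapes for replicate numbers and black bars for mean ± SD. The 4 Erbb3d/d values of Lifr lie at 47.9 CPM or above and the 4 Erbb3f/f values at 39.6 CPM or below, while the labels overlap for the other 9 genes.

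Among the receptor chains, Lifr, on chromosome 15 at 7090614 to 7197489 (plus strand, 24 merged exons), encodes the LIF receptor, which also serves other family ligands. It had 31.2, 29.2, 30.8 and 39.6 CPM under Erbb3f/f, against 47.9, 53.3, 70.6 and 79.6 CPM under Erbb3d/d. Every Erbb3d/d library lay above every Erbb3f/f library, and replicates 3 and 4 were the highest. Lifr was the only member of the 9 tested whose labels did not overlap, a pattern seen in 5.04% of all genes (2.56% higher and 2.48% lower in Erbb3d/d). The mean was 32.7 ± 4.67 CPM (SD, n = 4) for Erbb3f/f, and 62.8 ± 14.8 CPM (SD, n = 4) for Erbb3d/d. For Lifr the log2 fold change was 0.95 (SE 0.17), rank 19 of 14598 genes by p-value, and edgeR's adjusted p was 0.133. By exact permutation (two-sided, 70 assignments) p was 0.0286, the smallest possible with 4 against 4. Lifr was called by DESeq2 (adjusted p = 0.000422) and by edgeR without Erbb3d/d replicate 2 (adjusted p = 0.0289), where 259 genes in all (1.75%, 0.968% higher) were called. Leaving out any other single library gave an edgeR adjusted p of 0.179 or more.

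Lifr also moved with the epithelial markers. Over the 8 libraries its log2 level and the epithelial mean had Pearson's r = 0.92 (exact permutation p = 0.000670, adjusted p = 0.0335 over 50 relations) and Spearman's rho = 0.95 (exact permutation p = 0.00114, adjusted p = 0.0570). Without the 2 libraries farthest from the median of the markers r was 0.89, and with each label centred on its own mean it was 0.87. The epithelial mean itself was 6.32 ± 0.274 log2 CPM for Erbb3f/f, against 6.90 ± 0.354 log2 CPM for Erbb3d/d (SD, n = 4 each; exact permutation p = 0.0571). In a bulk library more cells of a type and more RNA per cell cannot be told apart. Fitted with the epithelial mean as a covariate, Lifr had a log2 fold change of 0.48 (SE 0.17), with an unadjusted edgeR p of 0.0172 and an adjusted p of 0.999. Erbb3f/f replicate 4 and Erbb3d/d replicates 1 and 2 had nearly equal epithelial means, 6.59, 6.58 and 6.61, and their Lifr levels were 39.6, 47.9 and 53.3 CPM. With Erbb3d/d replicates 3 and 4, the highest in epithelial markers, both left out, the log2 fold change was 0.63 (SE 0.15) and the edgeR adjusted p 0.629. Fitted with the smooth muscle mean instead, Lifr stood at a log2 fold change of 1.13 (SE 0.25).

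Il6st, on chromosome 13 at 112464070 to 112510086, encodes gp130, the chain that all these receptors share. It had 423, 539, 392 and 393 CPM under Erbb3f/f, against 470, 451, 432 and 451 CPM under Erbb3d/d. All 4 Erbb3d/d values fell inside the Erbb3f/f range. The log2 fold change was 0.05 (SE 0.11, edgeR adjusted p = 0.904), and its sign changed under 3 of the alternatives, so no direction is given. The SD over libraries was 15.9% of the mean in Erbb3f/f and 3.40% in Erbb3d/d.

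Osmr, on chromosome 15 at 6813577 to 6874969, encodes the oncostatin M receptor chain that pairs with gp130. It was almost constant in Erbb3f/f, at 15.2, 15.8, 14.9 and 16.7 CPM. Under Erbb3d/d it ranged more widely, at 25.5, 9.45, 15.8 and 46.0 CPM, which covers levels both below and above every Erbb3f/f library. The SD was 5.12% of the mean in Erbb3f/f and 66.0% in Erbb3d/d. Its log2 fold change of 0.63 (SE 0.40, edgeR adjusted p = 0.573) rested on Erbb3d/d replicate 4, without which it was 0.12 (SE 0.28), and it was 0.90 (SE 0.30) without Erbb3d/d replicate 2. It was 0.05 (SE 0.58) with the epithelial mean as a covariate and 0.04 (SE 0.65) with the smooth muscle mean. With the mean of the immediate early genes it was 0.37 (SE 0.51).

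The alpha chains were the least different receptor genes after Il6st. Il6ra, on chromosome 3 at 89864059 to 89913196, encodes the chain that binds IL6 itself. It had 18.7, 27.2, 37.6 and 20.5 CPM under Erbb3f/f, against 31.2, 22.6, 26.6 and 40.1 CPM under Erbb3d/d, with wide overlap (log2 fold change 0.21, SE 0.24, edgeR adjusted p = 0.773). That value ran from 0.05 without Erbb3d/d replicate 4 to 0.45 without Erbb3f/f replicate 3. Il11ra1, on chromosome 4 at 41699989 to 41769474, encodes the IL11-binding chain. It had 66.6, 49.0, 58.2 and 49.6 CPM under Erbb3f/f, against 60.8, 58.9, 39.6 and 30.6 CPM under Erbb3d/d. Only Erbb3d/d replicates 3 and 4 lay below the Erbb3f/f range. The log2 fold change was -0.24 (SE 0.21, edgeR adjusted p = 0.706). It was -0.07 (SE 0.17) without Erbb3d/d replicate 4 and 0.18 (SE 0.23) with the epithelial mean as a covariate. With the mean of the immediate early genes it was -0.35 (SE 0.24), and with the smooth muscle mean -0.41 (SE 0.32). Il11ra1 has a close copy, Il11ra2, which had 0 reads in all 8 libraries, so the split of reads between the copies is uncertain. Il11ra1 also shares 8 exonic bases with Ccl27a on the other strand, and the libraries do not mark strand.

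Among the ligands, Lif, on chromosome 11 at 4257557 to 4272514, had 169, 59, 77 and 100 reads under Erbb3f/f, against 162, 62, 224 and 268 reads under Erbb3d/d. These correspond to 16.5, 6.18, 6.05 and 11.3 CPM, and to 15.9, 7.23, 17.7 and 23.5 CPM. Erbb3d/d replicates 3 and 4 were above all Erbb3f/f libraries, while Erbb3d/d replicate 2 was near the lowest of them. Its log2 fold change was 0.69 (SE 0.41, edgeR adjusted p = 0.536; exact permutation p = 0.200). Leaving out 1 library moved it to as little as 0.46 (without Erbb3d/d replicate 4) and as much as 1.06 (without Erbb3f/f replicate 1). Lif also moved with the epithelial mean (Pearson's r = 0.81, exact permutation p = 0.0147, adjusted p = 0.184; Spearman's rho = 0.76, exact permutation p = 0.0368, adjusted p = 0.459), and r was 0.59 without the 2 farthest libraries. With that mean as a covariate its log2 fold change was -0.21 (SE 0.42), the opposite sign. With the smooth muscle mean it was 0.13 (SE 0.56), and with the mean of the immediate early genes 0.35 (SE 0.42). Of the gland markers, Foxa2 had 3.96 to 15.9 CPM under Erbb3f/f and 2.84 to 8.98 CPM under Erbb3d/d (log2 fold change -0.52, SE 0.49, edgeR adjusted p = 0.722). Sox9 went the other way, with 3.61 to 11.1 and 13.3 to 26.2 CPM (log2 fold change 1.04, SE 0.34, edgeR adjusted p = 0.319). Its labels did not overlap, and higher values without overlap were seen in 2.56% of all genes tested. Prss28 and Prss29 were at or near 0.

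Il6 and Il11 were rare. Il6, on chromosome 5 at 30013114 to 30019981, had 34, 1, 10 and 12 reads under Erbb3f/f, against 52, 17, 30 and 32 reads under Erbb3d/d. The levels were 3.31, 0.105, 0.786 and 1.36 CPM and 5.11, 1.98, 2.36 and 2.81 CPM. All 4 Erbb3d/d values exceeded those of Erbb3f/f replicates 2, 3 and 4, but only replicate 1 of Erbb3d/d exceeded Erbb3f/f replicate 1. The log2 fold change was 1.14 (SE 0.68, edgeR adjusted p = 0.541; exact permutation p = 0.114). It was 0.44 (SE 0.53) with the mean of 10 immediate early genes as a covariate and 0.01 (SE 0.80) with the smooth muscle mean. With the epithelial mean it was 0.96 (SE 0.91), and without Erbb3f/f replicate 1 it was 2.04. Il11, on chromosome 7 at 4772373 to 4782859, had 18, 4, 24 and 3 reads under Erbb3f/f, against 4, 5, 5 and 4 reads under Erbb3d/d. Replicates 1 and 3 of Erbb3f/f, at 1.75 and 1.89 CPM, stood above the other 6 libraries, which had 0.339 to 0.583 CPM (exact permutation p = 0.286). The difference was not larger than the spread within Erbb3f/f.

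Inside the cell, Stat3, on chromosome 11 at 100885098 to 100939540, encodes the transcription factor that these receptors activate. It had 122, 125, 136 and 124 CPM under Erbb3f/f, against 160, 108, 163 and 168 CPM under Erbb3d/d. In 3 of 4 Erbb3d/d libraries it was above every Erbb3f/f library, and in Erbb3d/d replicate 2 it was below every one. Its log2 fold change was 0.24 (SE 0.13, edgeR adjusted p = 0.513), and 0.37 without Erbb3d/d replicate 2 (adjusted p = 0.0541). Stat3 shares 72 exonic bases with Stat5a on the other strand. The counts measure its transcript and say nothing of phosphorylation.

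Socs3, on chromosome 11 at 117966079 to 117970047, encodes the inhibitor that binds gp130 and the JAK kinases. It had 208, 156, 276 and 223 CPM under Erbb3f/f, against 462, 276, 267 and 328 CPM under Erbb3d/d. The mean was 216 ± 49.2 CPM (SD, n = 4) for Erbb3f/f, and 333 ± 89.8 CPM (SD, n = 4) for Erbb3d/d. Erbb3f/f replicate 3 lay above Erbb3d/d replicate 3 and level with Erbb3d/d replicate 2, and the other Erbb3f/f libraries lay below all Erbb3d/d libraries. The log2 fold change was 0.63 (SE 0.21), with edgeR p = 0.0138 unadjusted and 0.321 adjusted, and exact permutation p = 0.0571.

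Socs3 and Il6 moved with the immediate early genes, which respond within minutes to stimulation and to tissue handling. For Socs3 Pearson's r was 0.88 (exact permutation p = 0.0125, adjusted p = 0.184) and Spearman's rho 0.62 (exact permutation p = 0.115, adjusted p = 0.479). For Il6 Pearson's r was 0.90 (exact permutation p = 0.00370, adjusted p = 0.0924) and Spearman's rho 0.81 (exact permutation p = 0.0218, adjusted p = 0.459). Without the 2 libraries farthest from the median of these genes r was 0.22 for Socs3 and 0.55 for Il6. These were Erbb3f/f replicate 2 and Erbb3d/d replicate 1, on which the relation of Socs3 rested largely and that of Il6 in part. With each label centred on its own mean r was 0.87 for both genes. The mean of the immediate early genes was 7.91 ± 0.427 log2 CPM for Erbb3f/f, against 8.31 ± 0.394 log2 CPM for Erbb3d/d (SD, n = 4 each; exact permutation p = 0.286). With it as a covariate the log2 fold change of Socs3 was 0.31 (SE 0.14). With the epithelial mean as a covariate it was 0.90 (SE 0.28), and with the smooth muscle mean 0.45 (SE 0.34). Of the 50 relations between the 10 members and 5 marker lists, 1 passed an adjusted p of 0.05 by Pearson's r, that of Lifr with the epithelial markers, and 0 by Spearman's rho.

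**Figure D2:**
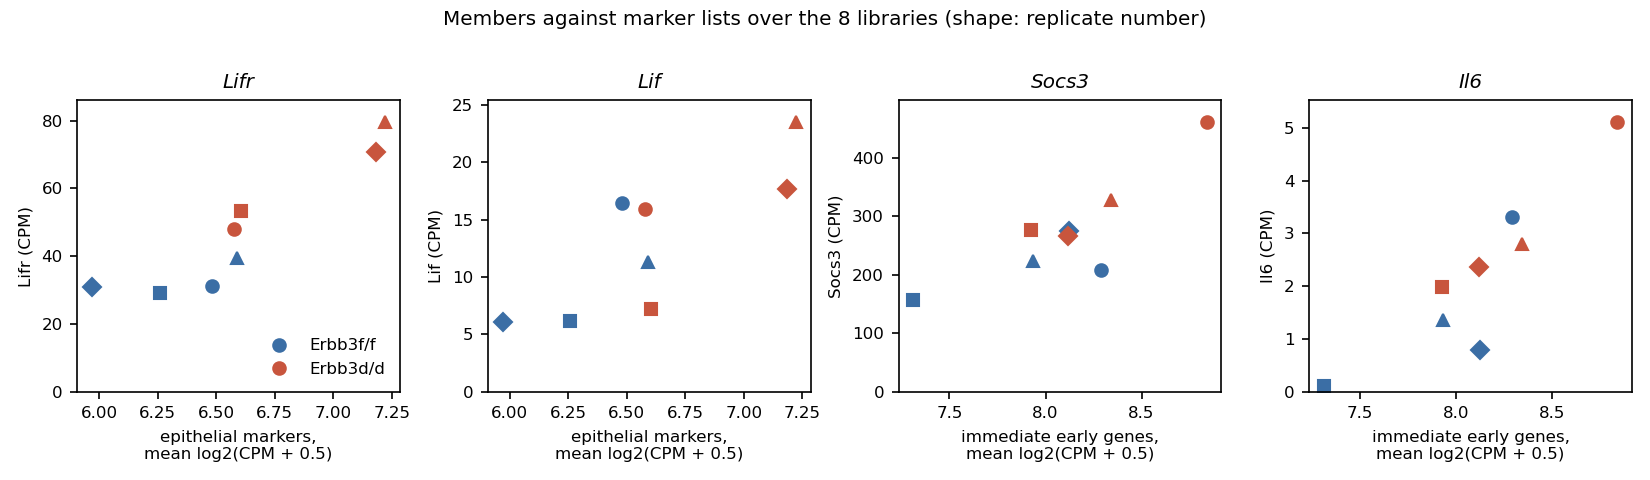
Levels of Lifr, Lif, Socs3 and Il6 in CPM (vertical axes from 0) against the mean log2(CPM + 0.5) of a marker list (horizontal axes) in the 8 libraries, with colour for the label and shape for the replicate number. Lifr is highest in Erbb3d/d replicates 3 and 4, which have the highest epithelial means, and Socs3 and Il6 are highest in Erbb3d/d replicate 1, which has the highest mean of immediate early genes.

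Levels were compared between genes per kilobase of merged exon. In Erbb3f/f Socs3 was the most abundant member (74.6 ± 17.0 CPM per kilobase), followed by Il6st (39.4 ± 6.28), Stat3 (13.3 ± 0.657) and Il11ra1 (12.5 ± 1.86; SD, n = 4 each). Stat3 and Il11ra1 overlapped in range. Next came Lifr (3.03 ± 0.433), Il6ra (3.01 ± 0.993) and Lif (2.30 ± 1.14), which did not differ beyond their spread. Osmr (1.29 ± 0.0662), Il6 (0.572 ± 0.568) and Il11 (0.528 ± 0.401) were lowest, and the range of Il6 overlapped those of both Osmr and Il11. In Erbb3d/d Lifr stood at 5.83 ± 1.37, Socs3 at 115 ± 31.1 and Il6st at 40.6 ± 1.38 CPM per kilobase (SD, n = 4 each). The Il6st level per kilobase was 9.65 to 17.9 times that of Lifr in the Erbb3f/f libraries and 5.51 to 9.54 times in the Erbb3d/d libraries, so gp130 transcripts exceeded those of its LIF partner in all 8 libraries. With the longest transcript as the length in place of merged exons, Il11ra1 ranked above Stat3 and Osmr above Lif.

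**Figure D3:**
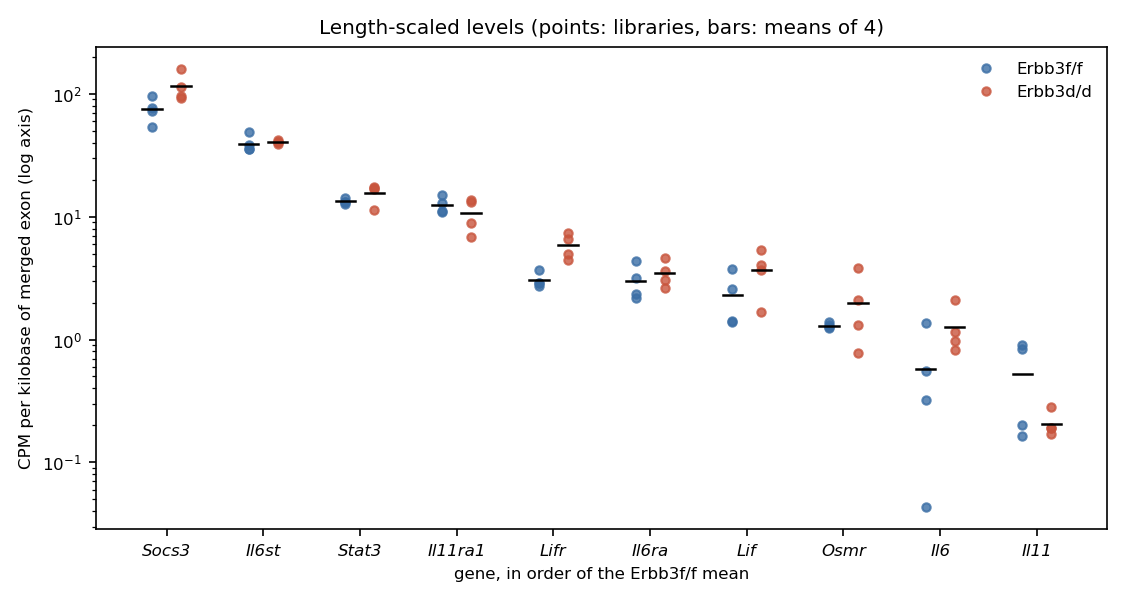
CPM per kilobase of merged exon on a log axis for the 10 genes, ordered by the Erbb3f/f mean, with points for libraries and black bars for the means of 4. Socs3 and Il6st lie highest and Il6 and Il11 lowest under both labels, and the Lifr points separate by label.

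The rest of the pathway was read from lists of 46 other genes, of which 40 passed the filter and 0 were called by edgeR at 0.05 after adjustment. At an unadjusted p under 0.05 there were 6 higher and 3 lower, against 6.64% and 4.97% of all genes. None of these is significant over all genes. The median log2 fold change of the 40 genes was 0.06.

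Among the 8 other ligands, 4 passed the filter, with 2 higher, 2 lower and 0 at an unadjusted p under 0.05. Oncostatin M, encoded by Osm, had 26.5 ± 11.9 CPM for Erbb3f/f, against 31.6 ± 10.6 CPM for Erbb3d/d (SD, n = 4 each). Clcf1, which encodes a ligand that acts through the CNTF receptor complex, had 12.6 ± 2.72 and 15.9 ± 3.33 CPM (SD, n = 4 each). Both thus exceeded Il6 and Il11 in CPM, a scale not corrected for length.

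Among the 4 other receptors, Il27ra, which encodes the receptor chain for IL27 and pairs with gp130, had lower values under Erbb3d/d. It had 11.5, 8.48, 10.8 and 9.38 CPM under Erbb3f/f, against 6.39, 4.90, 7.49 and 8.16 CPM under Erbb3d/d, without overlap. Lower values without overlap were seen in 2.48% of all genes tested. For Il27ra the log2 fold change was -0.57 (SE 0.22), and edgeR gave an adjusted p of 0.356 (unadjusted p = 0.0234). The direction was thus opposite to that of Lifr, the other partner of gp130 without overlap.

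Among the 7 kinases, STATs and adaptors, 4 were higher and 3 lower, with a median log2 fold change of 0.02. Jak1, the main kinase bound to gp130, had 234, 225, 226 and 213 CPM under Erbb3f/f, against 194, 197, 171 and 176 CPM under Erbb3d/d. All 4 Erbb3d/d libraries lay below all 4 Erbb3f/f libraries, as in 2.48% of all genes tested. The margin was small (log2 fold change -0.28, SE 0.08, unadjusted p = 0.00546, adjusted p = 0.285 in edgeR's test). Among the 7 inhibitors other than Socs3, 4 were higher, 3 lower and 0 reached an unadjusted p of 0.05, and the median log2 fold change was 0.01. The 2 sheddases that can release soluble IL6 receptor, Adam10 and Adam17, had log2 fold changes of 0.12 (SE 0.10) and 0.03 (SE 0.09).

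All 18 genes listed as responsive to STAT3 passed the filter, 13 with a higher and 5 with a lower mean in Erbb3d/d, and a median log2 fold change of 0.45. At an unadjusted p under 0.05 there were 5 higher and 1 lower. Of all genes tested 48% had a log2 fold change above 0, and 6.64% were higher and 4.97% lower at that p. Several of these genes also answer to other signals, among them growth factors and handling, and Fos and Junb are immediate early genes themselves. Myc, a growth regulator, had 293 ± 60.1 CPM for Erbb3f/f, against 170 ± 55.4 CPM for Erbb3d/d (log2 fold change -0.79, SE 0.24, edgeR adjusted p = 0.311; SD, n = 4 each). Ccnd1, which encodes cyclin D1, had 120 ± 36.3 and 206 ± 59.8 CPM (log2 fold change 0.78, SE 0.26, edgeR adjusted p = 0.323). Cebpd, an acute-phase transcription factor, had 49.0 ± 7.26 and 73.9 ± 26.2 CPM, and Birc5, which encodes survivin, had 12.0 ± 1.70 and 17.6 ± 4.99 CPM (SD, n = 4 each). Vegfa, named after its values were seen, was the only gene of this list without overlap, at 372, 385, 393 and 437 CPM under Erbb3f/f, against 442, 444, 492 and 466 CPM under Erbb3d/d (log2 fold change 0.22, SE 0.09, edgeR adjusted p = 0.394). Of all genes tested 5.04% had no overlap, with 2.56% higher and 2.48% lower in Erbb3d/d. With the epithelial mean as a covariate, 2 of the 40 pathway genes and 482 of all 14598 genes had an unadjusted p under 0.05, where 9 and 1695 had one without a covariate. The counts were 5 and 1187 with the mean of the immediate early genes, and 5 and 1135 with the smooth muscle mean.

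**Figure D4:**
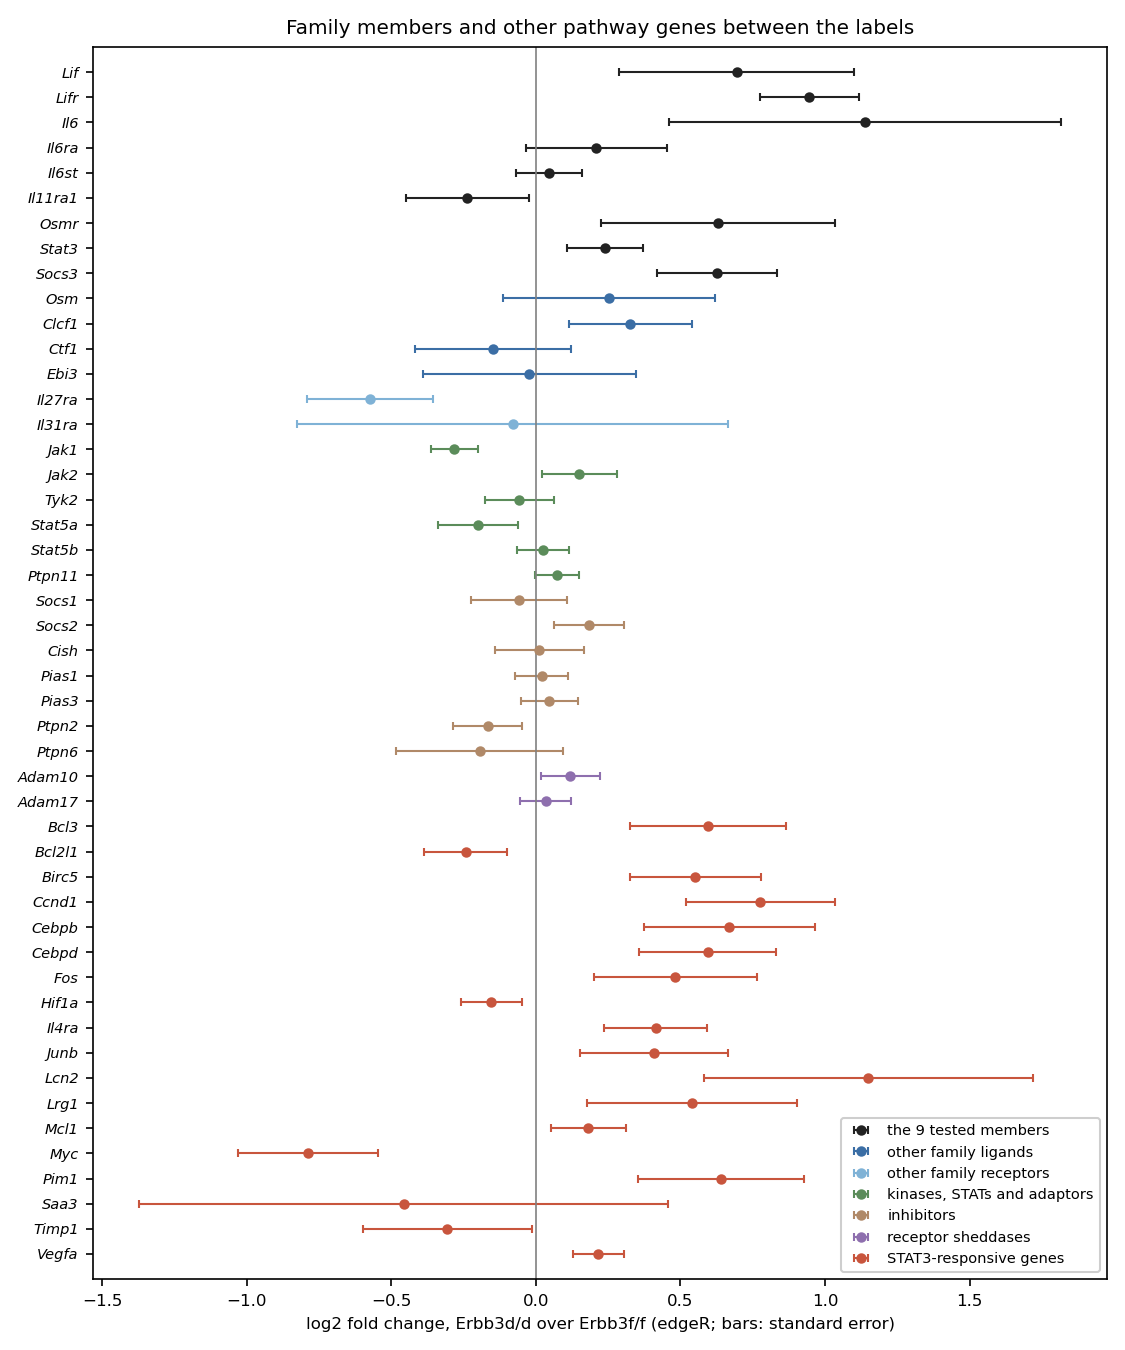
Log2 fold changes, Erbb3d/d against Erbb3f/f by label, (horizontal axis) with standard errors from edgeR for the 9 tested members and other pathway genes, coloured by list. Lifr lies at 0.95 with a short error bar, and 13 of the 18 STAT3-responsive genes lie above 0.

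The library map shows how these differences were spread. In Erbb3d/d replicate 4 Lif, Lifr and Osmr reached their highest values of the 8 libraries, at 23.5, 79.6 and 46.0 CPM. Erbb3d/d replicate 1 held the highest Il6 and Socs3, at 5.11 and 462 CPM. In Erbb3d/d replicate 2 Lifr and Socs3 were above the Erbb3f/f mean, while Lif, Osmr and Stat3 were below it. Among pairs of members, Osmr and Stat3 (Pearson's r = 0.78 over 8 libraries), Lif and Il6 (0.77) and Il6 and Socs3 (0.75) had the highest correlations, and Lifr and Il11ra1 the lowest (-0.72). The 8 libraries also varied in their epithelial, smooth muscle and immediate early marker levels, and why these pairs moved together was not tested.

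**Figure D5:**
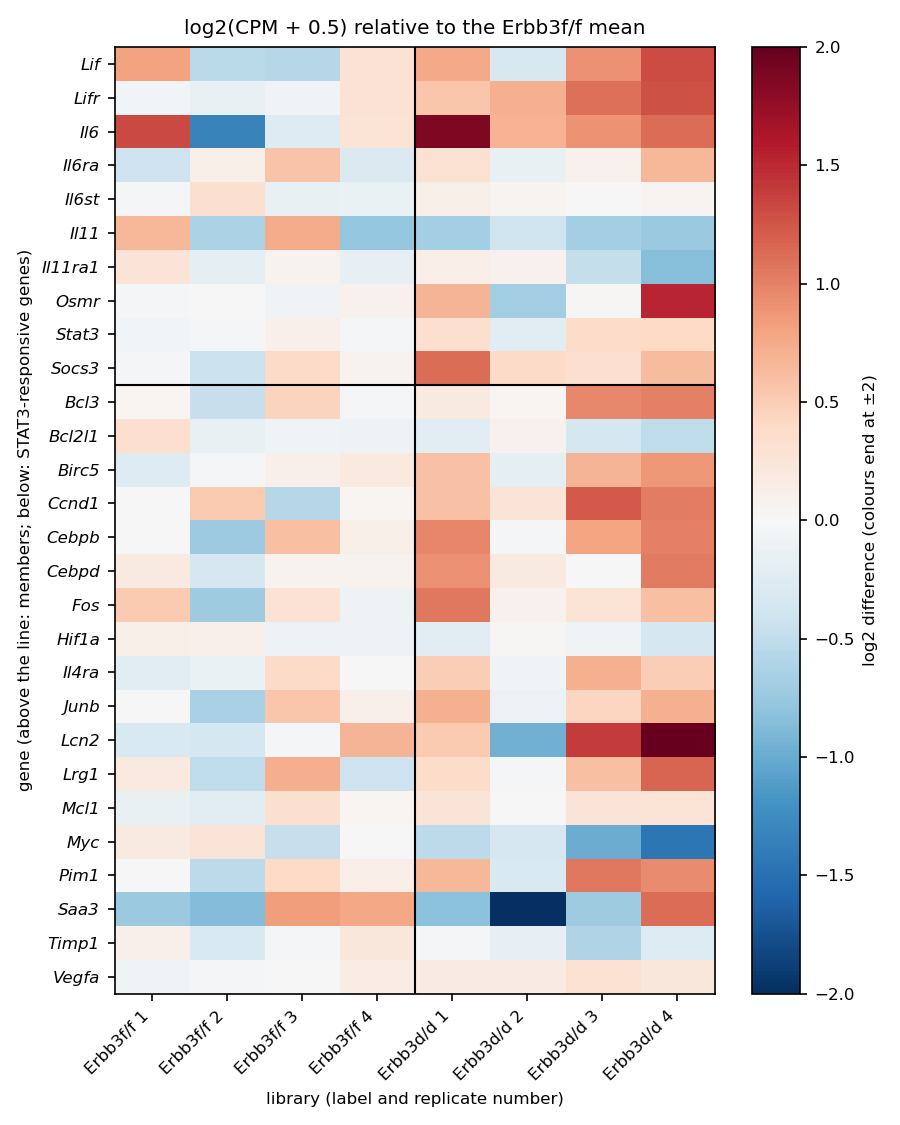
Log2(CPM + 0.5) of the 10 members (above the line) and the 18 STAT3-responsive genes (below it) in each library, minus the mean of the 4 Erbb3f/f libraries (red higher, blue lower, colours end at ±2). Lifr and Vegfa are the only genes drawn whose Erbb3d/d values all lie above every Erbb3f/f value. Il6, Socs3, Bcl3, Ccnd1 and Fos are also above the Erbb3f/f mean in all 4 Erbb3d/d libraries. Myc, Il11 and Timp1 are below it in all 4.

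The genes whose levels ran most nearly parallel to Lifr and Socs3 over the 8 libraries were sought among 12454 genes with a mean of at least 5 CPM. For Lifr they were Sgpp2, a sphingosine-1-phosphate phosphatase gene (Pearson's r = 0.99), Ap1s2, which encodes a clathrin adaptor subunit (0.98), and Entpd8, an ectonucleotidase gene (0.98). Their means were 10.9 ± 3.41, 51.1 ± 11.3 and 3.13 ± 0.852 CPM in Erbb3f/f, and 28.2 ± 12.4, 103 ± 31.8 and 9.01 ± 3.63 CPM for Erbb3d/d (SD, n = 4 each). The limit of 5 CPM was set on the mean over both labels, and Entpd8 passed it only through its Erbb3d/d level. For Socs3 they were Nap1l5, which encodes a nucleosome assembly protein relative (0.97), Fcgrt, which encodes the neonatal Fc receptor (0.97), and Arl8a, a small GTPase gene of lysosomes (0.96). These values describe likeness over 8 libraries only.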

How the data were processed

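The authors deposited raw read counts per gene symbol, 1 table per library. HISAT2, SAMtools, HTSeq and StringTie and the builds mm10 and GRCm38 are named, without versions or roles, per the submitters' processing notes. The annotation and counting options are not given in the sources used here. Libraries were made from polyadenylated RNA without strand marking, per the labels' protocols. Lines naming no gene held 70.9% to 73.0% of entries and were left out.

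Genotype and replicate number were read from the titles. Counts were fitted in R 4.3.3 with edgeR 4.0.16 (TMM scaling, filterByExpr, robust quasi-likelihood test, label as the only term; 14598 genes; threshold 0.05). The SE is the log2 fold change over the square root of the test's F. DESeq2 1.42.0, other scalings and filters, a replicate block, marker covariates and leaving out each library were alternatives, and the exclusion of Erbb3d/d replicates 3 and 4 was added after seeing the data. Single genes were tested on log2(CPM + 0.5) by two-sided exact permutation. Scripts were tested on simulated data.

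Members and lists were chosen with earlier results of these data known. Named are all members, and pathway genes with an unadjusted p under 0.05, at most 4 per list by smallest p; 1 such gene is not reported here. Likeness was taken for the 2 members with the smallest p. Of the marker lists, stromal, gland, endothelial, immune and mesothelial markers had list differences (Erbb3d/d minus Erbb3f/f, mean log2 CPM) of -0.33, 0.16, 0.20, 0.01 and -0.43, with exact permutation p of 0.0571, 0.371, 0.543, 0.971 and 0.343; smooth muscle markers had 1.02 (p = 0.0286). The listed markers Cxcl15 and Adgre1 matched no symbol. Coordinates and exon lengths are from GENCODE vM21 on GRCm38, in which 92.8% of 23420 symbols matched 1 gene, and promoters from RefSeq on GRCm38.p6. No 2 libraries agreed within sampling noise (chi-square per degree of freedom 11.03 or more).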

Additional observations from a re-analysis of the deposited data

Results flagged for a closer look

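The highest and lowest values within each label were examined for the 10 members and 8 marker lists, 36 sets of 4 in all. A single distant value was found, where chance at 1 in 20 gives 1.8. In Erbb3d/d replicate 2 Stat3 had 107.5 CPM, while replicates 1, 3 and 4 of that label had at least 160 CPM. It was also below the lowest Erbb3f/f library, at 122 CPM. The same library had the lowest Lif, Il6, Il6ra and Osmr of the 4 Erbb3d/d libraries.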

How the results depend on the processing

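No call of a member was made with all 8 libraries in edgeR, and 3 of 18 alternatives called 1 member, Lifr: DESeq2 (1 member, 261 genes in all), the replicate block (1 member, 52 genes in all) and the fit without Erbb3d/d replicate 2. Leaving out each library in turn gave 0 to 1 members and 0 to 259 genes called. The log2 fold change of Lifr was above 0 under all 18 alternatives, from 0.48 to 1.13. With the replicate block its adjusted p was 0.0381; the correlations of deviations of libraries sharing a number were 0.221, 0.159, 0.0959 and 0.145. As 1 of the 4 was under 0.1 and the labels do not say what a number shares, the numbers were not taken as pairs, although 3 of the 4 Erbb3f/f libraries correlated best with their own number. The block raised the members with an unadjusted p under 0.05 from 2 to 4. No pathway gene was called under any alternative run. Signs reversed for Lif (-0.21) and Il11ra1 (0.18) with the epithelial covariate, for Il11ra1 (0.10) without Erbb3d/d replicates 3 and 4, for Il6st (-0.10) with the smooth muscle covariate, and for Il6st on leaving out Erbb3f/f replicate 3 (-0.0025) or 4 (-0.0011), within a leave-one-out range of -0.0025 to 0.17. The cause was not tested. Over these results and alternatives, 227 of 246 values were rated the same. For differences between labels that meant the same direction and side of the threshold. For counts of calls it meant an equal or similar count, and for levels per kilobase a shift smaller than the SD. Il11 could be fitted only without the low-count filter (log2 fold change -1.36, SE 0.72, edgeR adjusted p = 0.549). Counting error is largest for Il6 and Il11, which had at most 52 and 24 reads in a library.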
